A study of Mus musculus with 3 samples.

Results

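The B lineage genes described here are 9 genes that mark B cells and the antibody-secreting cells they give rise to. They are Cd79a, Cd79b, Blk, Cd22, Cr2, Ms4a1, Fcer2a, Pax5 and Jchain, out of 22087 genes with a probe set of a single symbol on the array. A gene was taken when the platform annotation of a probe set gave exactly that 1 symbol, and all 9 were found, each with 1 probe set. RNA of cells sorted from mouse tumours was measured on Affymetrix arrays in samples 1, 2 and 3, which form 1 group. All 3 carry the genotype label Dicer1 +/-, meaning that 1 copy is altered of the gene whose endonuclease frees microRNAs from their precursors. All 3 were sorted as stroma, live cells that carried neither PECAM1, a surface protein that marks endothelial cells, nor the red fluorescent protein tdTomato. Whether this gate also removed B cells was not tested. What the prefix ASD in the series title stands for is not given in the sources used here, nor are the age and strain of the mice and the driver of tdTomato. Dicer1 +/+ stroma was not analysed here, so every comparison below is between samples of 1 genotype, each on 1 array, and carries no test. The labels do not say that the samples came from separate animals, and an SD here covers only how far these samples lie apart.

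B cells recognise antigen through a membrane antibody that is held in a complex with the signalling chains Ig-alpha and Ig-beta, the products of Cd79a and Cd79b. Src-family kinases such as Blk phosphorylate these chains, complement receptors lower the threshold for signalling and CD22 raises it. Pax5 commits progenitors to the B lineage and keeps them in it, and it is shut off when a B cell becomes an antibody-secreting plasma cell, which makes large amounts of the joining chain encoded by Jchain. In tumours, B cells can lie scattered in the stroma or gather with T cells in lymphoid aggregates.

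The starts of these genes were read from the RefSeq promoter table of build GRCm38.p6, which gives 250 bases before and 50 bases after a start, and which held 8 windows for 6 of the 9 genes, with 3 for Fcer2a. Cd79b, Blk and Ms4a1 had no window in it. Each window was searched on both strands for the octamer ATGCAAAT, which Oct factors bind, for CCCNNGGG, a motif of the early B cell factor EBF, and for GAGGAA, the core bound by PU.1 and other Ets factors. None of these motifs overlapped another in the windows. A pair of windows held a match, and they are shown with the match in capitals. The window of Cd79a (chr7:24897247-24897546, plus strand) had GAGGAA on the opposite strand, from 140 to 135 bases before the start. The window of Cd22 (chr7:30878979-30879278, minus strand) had CCCNNGGG from 48 to 41 bases before the start. The window of Jchain (chr5:88527848-88528147, minus strand), the gene with the widest range over the 3 samples, had none of the 3 and is shown for comparison.
Cd79a: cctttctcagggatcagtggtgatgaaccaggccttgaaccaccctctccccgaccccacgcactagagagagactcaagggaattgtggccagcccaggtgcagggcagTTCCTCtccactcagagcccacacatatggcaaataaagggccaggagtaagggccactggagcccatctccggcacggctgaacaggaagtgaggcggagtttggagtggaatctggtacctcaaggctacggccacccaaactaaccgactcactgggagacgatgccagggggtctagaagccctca
Cd22: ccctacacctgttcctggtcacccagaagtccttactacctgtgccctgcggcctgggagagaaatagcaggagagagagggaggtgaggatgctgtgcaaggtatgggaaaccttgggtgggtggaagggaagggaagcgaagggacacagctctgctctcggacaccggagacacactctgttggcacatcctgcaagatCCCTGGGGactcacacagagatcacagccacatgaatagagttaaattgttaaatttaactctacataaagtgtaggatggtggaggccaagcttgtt
Jchain: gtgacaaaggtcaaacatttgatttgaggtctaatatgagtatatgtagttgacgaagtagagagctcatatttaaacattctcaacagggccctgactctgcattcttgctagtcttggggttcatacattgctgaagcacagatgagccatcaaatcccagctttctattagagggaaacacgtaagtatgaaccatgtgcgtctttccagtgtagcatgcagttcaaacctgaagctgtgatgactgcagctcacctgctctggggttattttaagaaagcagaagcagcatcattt
Over all 32851 windows of the table, 1.74% held the octamer, 13.7% the EBF motif and 28.3% the PU.1 core. Of the 8 windows of these genes 0, 1 and 1 held them, so the matches are a description of the letters and not of binding.

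All 9 B lineage genes were highest in sample 1, on a log2 scale of intensity in which a difference of 1 is 2-fold. Among the 13656 genes detected on at least 1 array, 28.8% were highest in sample 1. The genes divided by size of the difference: Fcer2a, Jchain, Ms4a1, Cr2 and Cd22 stood more than 1 above the next sample, while Cd79a, Cd79b, Pax5 and Blk stood less than 1 above it. A gap of more than 1 above both other samples was seen for 5 of the 9 genes and for 0.630% of detected genes. The range over the 3 samples, highest minus lowest, exceeded 1 for 6 of the 9 and for 5.70% of detected genes, and its median was 1.93 over the 9 genes against 0.31 over all detected genes. With values below the detection level raised to it, an alternative chosen after seeing the data, the counts over the 9 genes were again 5 and 6, the shares of all detected genes 0.520% and 4.96%, and the median range 1.60 over the 9 genes against 0.29. These genes were proposed with earlier results of these data known, so their counts are a description, and no test was made of them as a set. In bulk samples, fewer cells of a type and less RNA per cell cannot be told apart.

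**Figure D1:**
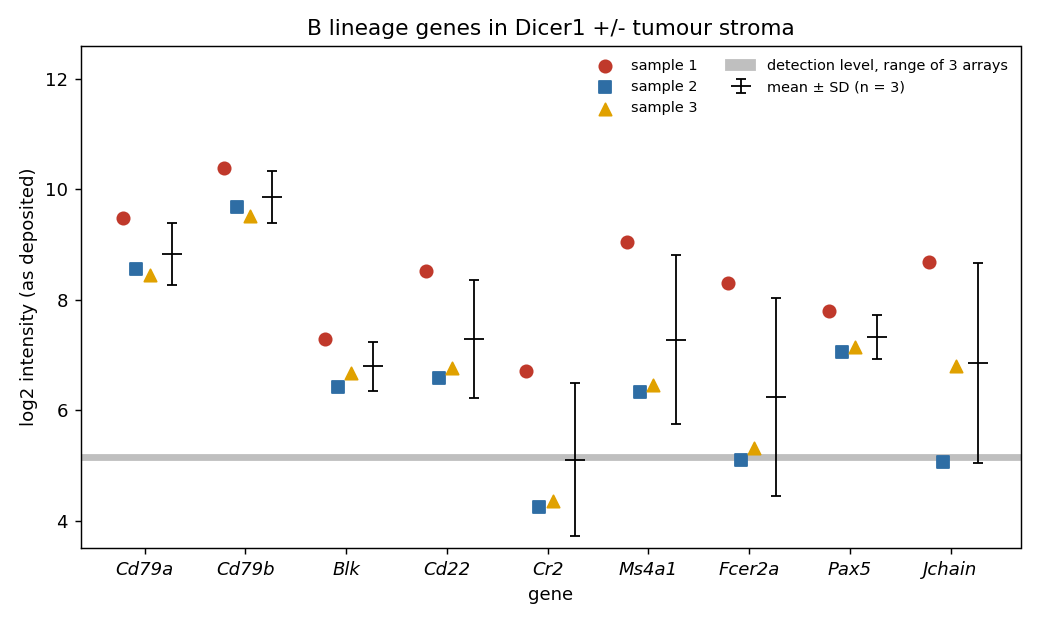
Log2 intensity (vertical axis) of the 9 B lineage genes (horizontal axis) in each sample, with the mean and SD over the 3 samples and the detection level as a grey band. Sample 1 is the highest point for every gene, and in sample 2 Cr2, Fcer2a and Jchain lie at or below the band.

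Detection was judged on each array against olfactory, vomeronasal, taste and trace amine receptor genes, which are not expected in tumour stroma. The detection level was the 95th percentile of their 1453 probe sets and stood at 5.15, 5.11 and 5.19 in samples 1, 2 and 3. On all 3 arrays 6 of the 9 genes were detected, and 60.7% of 20643 named genes outside the receptor families were. By sample, 9 were detected in sample 1, 6 in sample 2 and 8 in sample 3. Cr2 fell short in samples 2 and 3, and Fcer2a and Jchain in sample 2, by 0.01 and 0.04. A gene that passes on only some arrays passes through the sample where it is high, so the number detected supports nothing about the samples.

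The signalling chains of the receptor differed less between samples than the other surface proteins among the 9. Cd79a, which encodes Ig-alpha, was at 9.48, 8.57 and 8.44 in samples 1, 2 and 3, a mean of 8.83 ± 0.57 (SD, n = 3). Cd79b, which encodes Ig-beta, was at 10.40, 9.67 and 9.53, a mean of 9.87 ± 0.47 (SD, n = 3). For both chains sample 1 was the high one, and samples 2 and 3 lay within 0.15 of each other, with sample 3 the lowest. The range was 1.04 for Cd79a, or 2.05-fold, and 0.87 for Cd79b, or 1.83-fold. Cd79a thus passed the limit of 1 narrowly and Cd79b did not.

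Blk, the Src-family kinase that acts on these chains, was at 7.29, 6.42 and 6.68 in samples 1 to 3, a mean of 6.80 ± 0.445 (SD, n = 3). Its sample 1 value was 1.82-fold that of sample 2 and 1.53-fold that of sample 3. Sample 1 was again the high one, with sample 2 the lowest.

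The co-receptors that tune the signal differed more. Cd22, an inhibitory receptor that binds sialic acid, was at 8.51, 6.58 and 6.77 in samples 1 to 3, a mean of 7.29 ± 1.06 (SD, n = 3). Sample 1 was 3.81-fold above sample 2 and 3.35-fold above sample 3. Cr2, which in mice encodes both complement receptors CD21 and CD35 and is made by B cells and follicular dendritic cells, was at 6.71, 4.25 and 4.36. Only the sample 1 value was above the detection level. Set against that level in the other samples, Cr2 was at least 3.04-fold higher in sample 1 than in sample 2 and at least 2.86-fold higher than in sample 3.

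Among the 9, the surface markers Ms4a1 and Fcer2a of mature B cells stood farthest apart between sample 1 and the next sample. Ms4a1, which encodes CD20, was at 9.05, 6.34 and 6.45 in samples 1 to 3, a mean of 7.28 ± 1.53 (SD, n = 3). It was detected in every sample and was 6.55-fold higher in sample 1 than in sample 2 and 6.05-fold higher than in sample 3. Fcer2a, the low-affinity IgE receptor CD23 of follicular B cells, was at 8.31, 5.09 and 5.32, a mean of 6.24 ± 1.80 (SD, n = 3). With sample 2 set to its detection level, Fcer2a was at least 9.22-fold higher in sample 1 than in sample 2, and it was 7.95-fold higher than in sample 3, where it lay 0.13 above that level.

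Pax5, the transcription factor of B lineage commitment, had the smallest range of the 9. It was at 7.79, 7.05 and 7.15 in samples 1 to 3, a mean of 7.33 ± 0.40 (SD, n = 3), and was detected throughout. Sample 1 was 1.67-fold above sample 2 and 1.55-fold above sample 3.

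Jchain, the joining chain of polymeric IgM and IgA, had the largest range of the 9, with 3 separate levels, though without sample 2 its range was 1.88, below the 2.99 of Fcer2a and the 2.60 of Ms4a1. It was at 8.69, 5.07 and 6.81 in samples 1 to 3, a mean of 6.85 ± 1.81 (SD, n = 3). Sample 1 was at least 12.0-fold above sample 2, where the gene was not above the detection level, and 3.69-fold above sample 3. Sample 3 was in turn at least 3.25-fold above sample 2. Samples 2 and 3 were more than 1 apart for 1 of the 9 genes, Jchain, and for 3.47% of detected genes. For the other 8 genes, samples 2 and 3 differed by 0.10 to 0.25, with a median of 0.135, against a median of 0.19 over all detected genes.

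**Figure D2:**
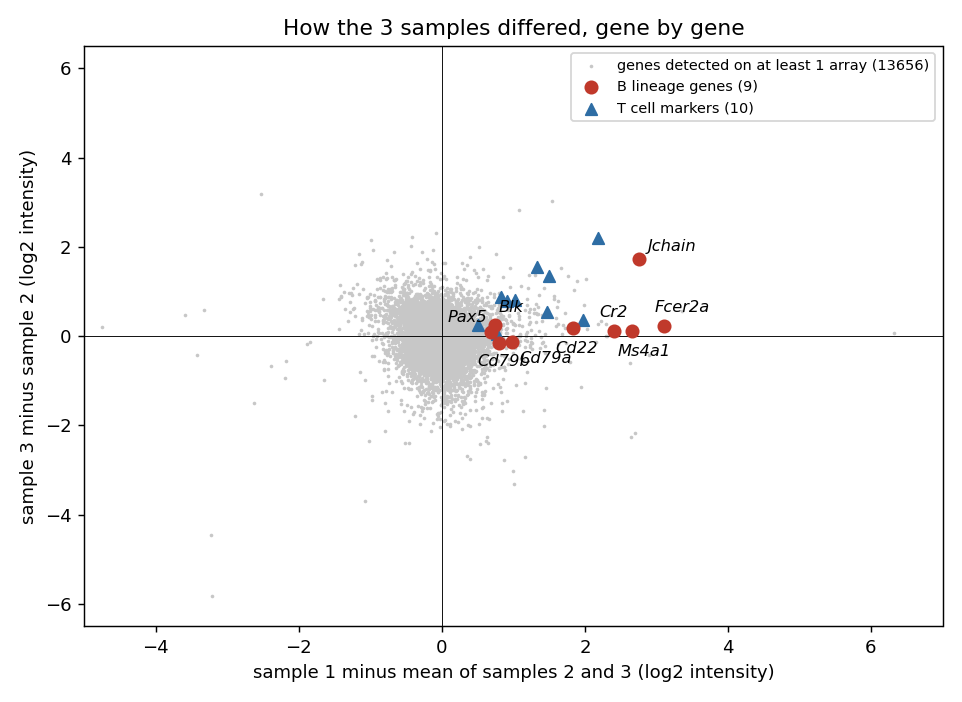
Each point is a gene, placed by sample 1 minus the mean of samples 2 and 3 (horizontal axis) and by sample 3 minus sample 2 (vertical axis), both as differences in log2 intensity. The 9 B lineage genes lie to the right of 0, from 0.69 for Pax5 to 3.10 for Fcer2a. All but Jchain lie close to 0 on the vertical axis. T cell markers lie to the right and above 0, from 0.04 for Cd4 to 2.19 for Cd3g, and the lowest of them overlap the B lineage genes on the vertical axis.

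The median over the 9 genes of the centred level, that is the log2 intensity less that gene's average of the 3 samples, was 1.23 in sample 1, -0.70 in sample 2 and -0.39 in sample 3. Over all detected genes these medians were -0.01, 0 and -0.0006. Without sample 1 the members' medians differed by 0.15 in place of 1.93, and 1 gene, Jchain, in place of 6 had a range above 1. For the 8 genes other than Jchain, the difference between samples rests on sample 1.

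Other B cell genes were read from lists for stages and functions, and the lists differed in how often sample 1 was highest. Of 20 genes of the mature B cell surface and antigen presentation, all measured, 19 were detected on at least 1 array, 16 were highest in sample 1 and 8 had a range above 1. Fcmr, the receptor for the Fc part of IgM, was at 8.79, 6.20 and 6.66 in samples 1 to 3. Ly6d, a marker of B cell progenitors and B cells, was at 9.74, 8.22 and 7.65. Ccr6, a chemokine receptor, was at 6.22, 4.41 and 5.33. It was below the detection level in sample 2 and 0.14 above it in sample 3. Cxcr5, which guides B cells to follicles, was at 7.46, 6.05 and 6.16, and Ccr7, which guides lymphocytes to T cell zones, at 8.39, 7.32 and 7.62. The sample medians of the centred level for this list were 0.50, -0.31 and -0.16, in the same order as for the 9 genes and closer together.

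Genes of B cell progenitors differed less between samples. Of 10 such genes 9 were measured and 8 detected on at least 1 array, 5 were highest in sample 1 and 0 had a range above 1. Il7r, the interleukin-7 receptor that T cells also carry, was at 8.41, 7.86 and 8.04 in samples 1 to 3, Dntt, the enzyme that adds nucleotides at V(D)J joints, at 7.39, 6.88 and 6.70, and Rag2, a subunit of the recombinase, at 5.55, 5.03 and 4.79. Rag2 was above the detection level in sample 1 alone, by 0.40.

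Transcription factors of the lineage, all 14 detected on every array, included 9 that were highest in sample 1 and 2 with a range above 1. Ikzf3, the factor Aiolos of lymphocytes, was at 8.08, 6.86 and 6.81 in samples 1 to 3, and Spib, an Ets factor of B cells and plasmacytoid dendritic cells, at 8.52, 8.12 and 7.70. Bcl11a, needed in early lymphoid cells and in dendritic cell development, was instead highest in sample 3, at 7.82, 6.85 and 8.12. Ebf1, the early B cell factor that adipocyte and stromal cells also make, was highest in sample 2, at 9.09, 9.47 and 8.87, while Tcf3 and Foxo1 had ranges of 0.28 and 0.01.

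Genes that carry the signal from the receptor showed no common lead of sample 1. Of 20 listed, 16 were measured and all 16 were detected on every array, with 5 highest in sample 1, 10 highest in sample 3 and 1 with a range above 1. That gene was Bank1, a scaffold protein of B cell receptor signalling, at 9.15, 7.61 and 7.44 in samples 1 to 3. Syk and Btk, the kinases next in the cascade, which myeloid cells also use, were at 8.57, 8.35 and 8.82 and at 8.20, 7.95 and 8.30. Plcg2 and Pik3cd, enzymes that act on membrane lipids further down the cascade, had ranges of 0.80 and 0.77.

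Germinal centre genes showed no common order of the samples, with 5 of 6 measured genes detected on at least 1 array, 1 highest in sample 1 and 1 with a range above 1. Bcl6, the repressor of the germinal centre programme, which other cells also express, was at 9.16, 9.34 and 9.75 in samples 1 to 3, S1pr2 had a range of 0.07 and Mybl1 one of 0.52. The gene with a range above 1 was Gcsam, which passed the detection level in sample 3 alone, at 5.41, and with values raised to that level 0 genes of this list had a range above 1.

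Among 12 plasma cell genes, all detected on at least 1 array, 7 were highest in sample 1 and 1 had a range above 1. This was Mzb1, an endoplasmic reticulum protein that helps antibody assembly in B and plasma cells, at 8.30, 6.55 and 6.81 in samples 1 to 3. Unlike Jchain, Mzb1 differed by 0.26 between samples 2 and 3. The plasma cell factors Prdm1 and Xbp1, used by other secretory and immune cells too, were at 6.83, 6.57 and 7.12 and at 8.98, 8.67 and 8.93, and Sdc1 had a range of 0.31. Tnfrsf17, the plasma cell survival receptor BCMA, passed the detection level in sample 1 alone, at 5.35, and Slamf7 had a range of 0.73.

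Antibody constant region genes were measured under a single symbol for 2 of 12, Ighm and Ighg3. Ighm, the heavy chain of IgM, was at 11.59, 10.56 and 11.33 in samples 1 to 3, and Ighg3 at 6.0, 4.92 and 5.63. In both of these probe sets, as in Jchain, sample 3 lay between a higher sample 1 and a lower sample 2. They had the highest mean of 7 for Ighm and of 2 for Ighg3, and the others are not shown. Ighg3 was not above the detection level in sample 2. Constant regions share sequence, and signal from related genes may enter their probe sets. Of 13 kappa variable segments with their own symbol, 10 were detected on at least 1 array and all 10 were highest in sample 1. Their sample medians of the centred level were 1.46, -0.53 and -0.68. A segment among the 10, at 6.67, 4.98 and 5.02 in samples 1 to 3, was above the detection level in sample 1 alone. Such a segment is kept only because it is high in sample 1. The count of 10 and these medians may therefore rest in part on how segments were kept.

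**Figure D3:**
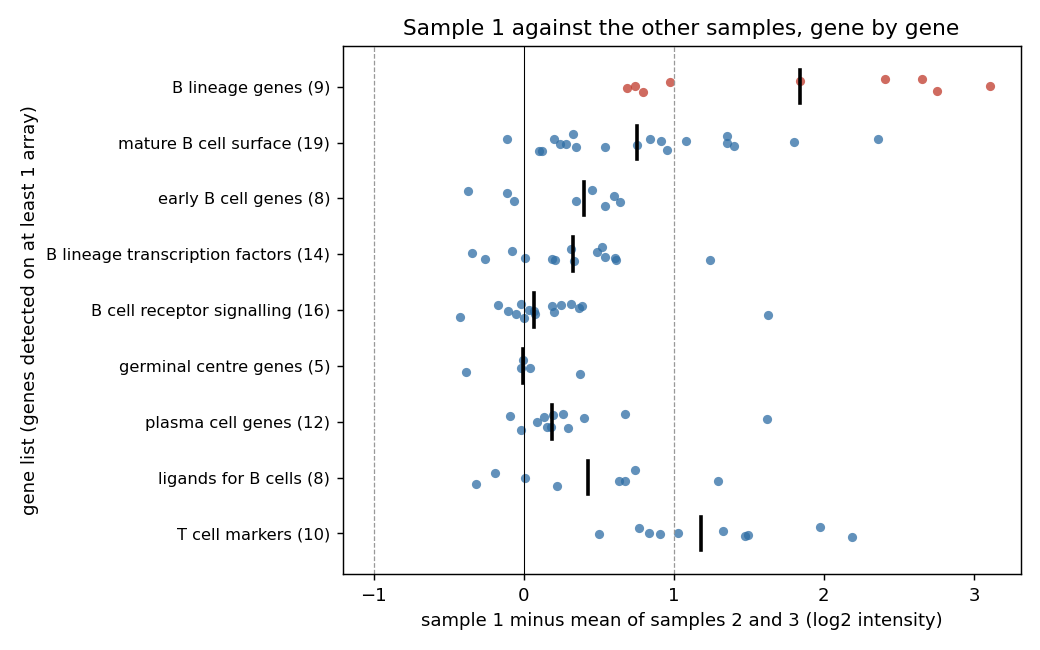
Sample 1 minus the mean of samples 2 and 3 in log2 intensity (horizontal axis) for each gene detected on at least 1 array, with a black bar at the list median and dashed lines at -1 and 1. The median is 1.84 for the 9 B lineage genes, 0.75 for the mature B cell surface, 0.41 for early B cell genes, 0.07 for receptor signalling and 1.18 for T cell markers.

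Ligands that feed or attract B cells did not follow 1 order. Of 13 listed, 10 were measured and 8 detected on at least 1 array, with 5 highest in sample 1 and 2 with a range above 1. Tnfsf13b, the survival factor BAFF, was at 6.98, 7.04 and 7.55 in samples 1 to 3, and Cxcl13, the ligand of Cxcr5, at 6.17, 6.21 and 5.69. Cxcl12, a stromal chemokine, was at 9.63, 9.29 and 8.62. Ltb, a lymphotoxin chain made by lymphocytes, was at 8.49, 6.51 and 7.87, and Cd40lg, which helper T cells show to B cells, was above the detection level in sample 1 alone, at 5.34.

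T cell markers were likewise highest in sample 1. All 10 measured of 14 were detected on every array, each of the 10 had its top value in sample 1 and its lowest in sample 2, where 29.3% of detected genes were lowest. Cd3g, a subunit of the T cell receptor complex, was at 8.42, 5.14 and 7.33 in samples 1 to 3, Cd3d at 8.06, 5.89 and 7.23, and Cd3e at 8.59, 6.49 and 8.04. Their summed linear intensity was 2277, 658 and 1261, and that of the 9 B lineage genes 4171, 1678 and 1699. The 9 genes were lowest in sample 2 in 7 cases and in sample 3 in 2. The part of T cells in the B lineage values was not tested. Sample 3 lay above sample 2 by 0.04 for Cd4 to 2.19 for Cd3g among the 10 T cell markers. The sample 2 value of Cd3g was only 0.04 above the detection level.

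**Figure D4:**
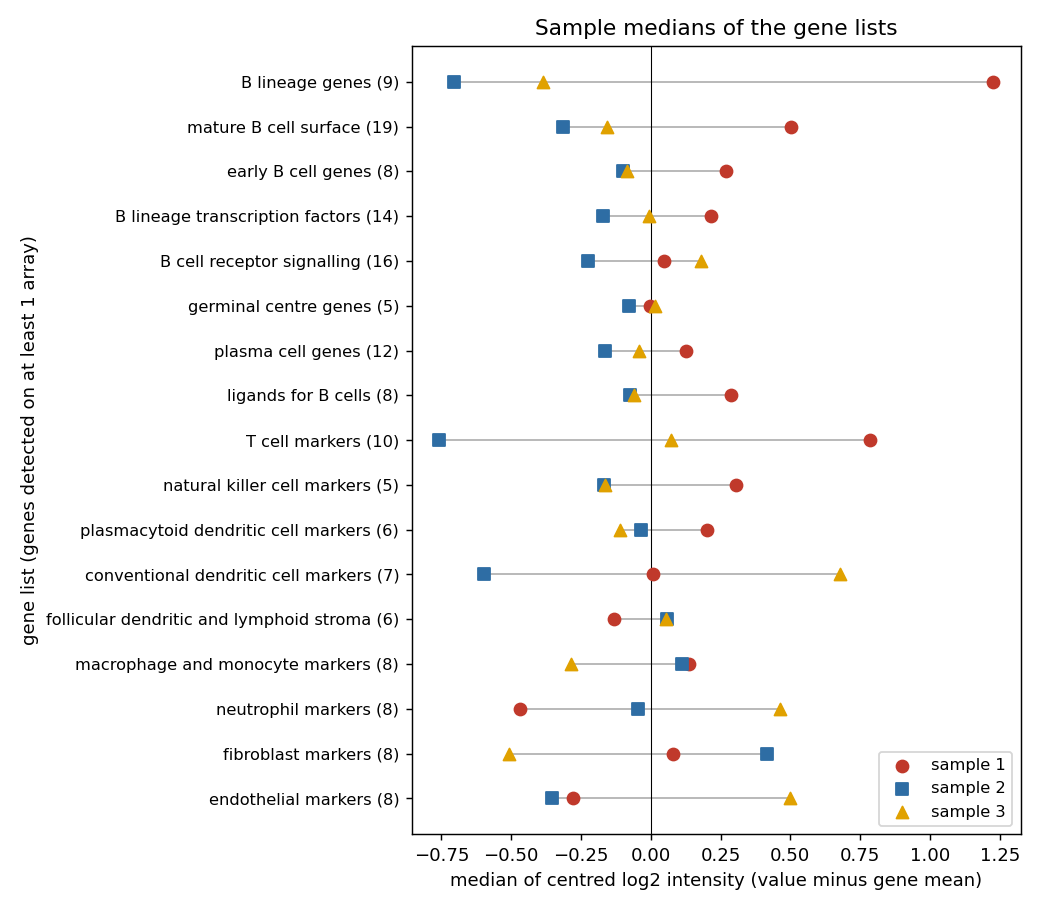
Median over a list's genes of the log2 intensity minus the gene's mean over the 3 samples (horizontal axis), for each gene list with its number of genes detected on at least 1 array (vertical axis), by sample. The B lineage genes span -0.70 to 1.23 and T cell markers -0.76 to 0.79, whereas the neutrophil and endothelial lists are highest in sample 3 and the fibroblast list in sample 2.

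Marker lists for cells that share single genes with B cells showed no common lead of sample 1. Plasmacytoid dendritic cell markers, 6 of 7 measured detected on at least 1 array, were highest in sample 1 in 3 cases and in sample 2 in 3, with Siglech at 7.45, 6.89 and 7.01, Bst2 at 8.27, 8.55 and 6.72 and Tcf4 at 9.31, 9.58 and 9.28. Klk1, one of a family of kallikreins with closely similar sequences, was at 6.51, 4.91 and 5.42, with sample 2 below the detection level. Ccr9 was below that level throughout. The summed linear intensity of this list was 1739, 1806 and 1421 in samples 1 to 3. Its sample medians of the centred level were 0.20, -0.03 and -0.11, highest in sample 1. Markers of follicular dendritic cells and lymphoid stroma, 6 measured of 8, were in 0 cases uniquely highest in sample 1, with Mfge8 at 8.54, 9.20 and 8.84, Clu at 7.93, 8.80 and 8.22, and 3 equal values for Madcam1. Their summed linear intensity was 1336, 1792 and 1580 in samples 1 to 3. The part of these cells in the Cr2 signal was not tested.

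The lists for other cells differed in their leading sample. The sample medians of the centred level were 0.31, -0.17 and -0.165 for natural killer cell markers, where 3 of 5 detected genes were highest in sample 1, among them Gzma at 6.55, 5.54 and 5.48. They were 0.01, -0.60 and 0.68 for conventional dendritic cells, 0.14, 0.11 and -0.29 for macrophages and monocytes, -0.47, -0.05 and 0.46 for neutrophils, 0.08, 0.41 and -0.51 for fibroblasts and -0.28, -0.35 and 0.50 for endothelial cells. Pecam1 itself was detected, at 8.02, 7.20 and 8.25, although the gate excludes cells with its protein. Sample 1 also differed in sex-linked transcripts, with Xist at 9.78, 3.43 and 3.49 and the Y-linked Eif2s3y at 3.86, 8.51 and 8.71. With 1 such sample, the level of B lineage genes and the sex of the animal cannot be told apart. Dicer1 was at 8.10, 8.10 and 8.08, and its probe set is not known to lie in the altered part of the gene.

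The genes outside the 9 whose centred levels over the 3 samples lay nearest to the mean of the 9 included genes of B and of T lymphocytes and a small nucleolar RNA. Nearness was the root mean square difference over the 3 samples, taken among genes with a range above 1, with unnamed gene models left out. The nearest 10 were the small nucleolar RNA Snord35b (0.04), Mzb1 (0.07), the lymphocyte receptor Slamf6 (0.08), the T cell co-receptor chain Cd8b1 (0.10), Tespa1 of T cell receptor signalling (0.10), the lymphocyte GTPase Gimap9 (0.10), a kappa light chain variable segment (0.11), Gimap6 (0.13), the class II gene H2-Eb2 (0.16) and the T cell kinase Prkcq (0.18). Among the 9 themselves Cd22 lay 0.05 from the mean, Cr2 0.31 and Jchain, the farthest, 0.75. Of the nearest 10, Tespa1 and the kappa segment were above the detection level in sample 1 alone, and H2-Eb2 was not above it in sample 2. Their nearness rests in part on values near or below that level. With only 3 samples, many genes can share such a pattern, and the nearness is given as a description.

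Ms4a1 has relatives with other cell ranges. Of 19 other Ms4a genes 11 were detected on at least 1 array, and 8 of them were highest in sample 1. The share over all detected genes was 28.8%. Sample 1 stood more than 1 above both other samples for 1 of the 11, Ms4a4b, and for 0.630% of detected genes. Ms4a4b, a T cell gene, was above the detection level in sample 1 alone, at 5.73, 3.22 and 4.45, at least 1.54-fold higher than in sample 2 and 1.45-fold higher than in sample 3. The macrophage gene Ms4a7 was at 10.19, 10.01 and 9.18, with samples 1 and 2 close to each other.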

How the data were processed

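The table the authors deposited holds log2 intensities of 31873 probe sets on 3 arrays. Partek is named, with no role, per the submitters' processing notes, and background correction and normalization are not stated there. That the scale is log2 was judged from the values, with array medians of 5.35, 5.34 and 5.36. In 4938 probe sets at least 2 arrays held exactly equal values, none of them a probe set of the 9 genes. Precision is limited by having 3 arrays.

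GEO's platform annotation named a single gene for 23094 probe sets and several genes for 1764, and left 7015 unnamed here. Only the first kind was used, and a gene took its probe set with the highest mean. The table has no detection calls, so the receptor level served. A fold against a sample below that level was computed against the level itself. Members and lists were chosen with earlier results of these data known: 18 lists with 192 symbols, 162 of them measured by a single-symbol probe set and the rest not analysed here. The text names the first 3 measured members of a list and the 3 with the largest range for the B cell lists, and some of these for lists of other cells; 1 item is not reported here. Genes named outside this, Ms4a4b, Ms4a7, Ccr9 and Cd4, were chosen after their values were seen. Protein sequences were not used here, so the planned search for protein motifs was not run. There is 1 group, so no p-value was computed. Calculations used Python 3.11.15 with pandas 2.3.3 and numpy 2.4.6. Of the counts, only that of genes with sample 1 more than 1 above both other samples was tested on simulated data. Alternatives changed the detection level, normalization, probe set summary, size limit and filter, left out each sample in turn and, chosen after seeing the data, raised values below the detection level to it.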

Additional observations from a re-analysis of the deposited data

How the results depend on the processing

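Every one of the 9 genes stayed highest in sample 1 with quantile normalization and with arrays centred on their medians. Leaving out sample 2 or sample 3 cannot change which gene is highest in sample 1, so it is no check of this. Raising values below the detection level to it, an alternative chosen after seeing the data, cannot change it either. In sample 1 all 9 genes lay above the levels of all 3 arrays. Taking the mean of all probe sets or no filter on dim probe sets changes nothing by construction, since each gene has 1 probe set and all 9 pass. The number detected on all arrays was 6 and ran from 4 with the 99th percentile of the receptor genes as the level to 8 with the 90th or with means over the arrays. Leaving out samples gave 6 to 8. The number with a range above 1 was 6, with 9 at a limit of 1.5-fold and 5 at a limit of 1.5 on the log2 scale. Leaving out samples gave 1 to 6, the 1 being without sample 1. The span of the sample medians was 1.93 and was 1.91 with quantile normalization or with the mean in place of the median over the genes, 1.92 with arrays centred on their medians and 1.60 with values raised to the detection level, and leaving out samples gave 0.15 to 1.93, the 0.15 being without sample 1. Without sample 1 the ranges of the single genes ran from 0.10 to 1.74, and all 9 ranges moved by more than 1 SD. No range moved by that much without sample 2, without sample 3 or under either scaling. A range stays the same by construction when the middle sample is left out. A mean of 3 samples cannot move by 1 SD when 1 is left out, so the 9 means are no check of this. Jchain had the largest range of the 9 in all these settings except without sample 2, where it was 1.88 in place of 3.62, below Fcer2a, Ms4a1 and Cr2 at 2.99, 2.60 and 2.35. No paired analysis was possible because there is only 1 group. Values of Cr2, Fcer2a and Jchain near or below the detection level limit how far their folds can be read, and 3 arrays limit all of them. The protein motif search was not run.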
